A study of Mus musculus with 12 samples.

Results

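A set of 9 genes of plasminogen activation and of the control of blood clotting was followed in mouse meninges, the sheets of tissue around the brain. They were picked by symbol: Plat, Plau, Plaur and Serpine2 of plasminogen activation, Thbd, Procr, F3 and Tfpi of coagulation control, and Serping1 of the contact and complement systems. All 9 were found among the 47747 gene symbols of the deposited count table, and all 9 passed the filter on low counts. The symbols were chosen with the difference between DSS and Control mice already known, so the fold changes and adjusted p-values below describe the genes and lend no independent weight to the choice.

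Total RNA was sequenced from 6 DSS mice and 6 Control mice, all C57bl/6, with 1 library per mouse. DSS is dextran sulfate sodium, a sulfated polysaccharide that damages the lining of the colon and serves to model colitis. It was dissolved at 2% in the drinking water of the DSS mice for 5 days, followed by plain water, and the mice were killed after 6 days. The labels do not say from which day the 6 days were counted, nor what the Control mice drank, nor the age or sex of any mouse. The comparison is of the meninges of DSS-treated mice, which the titles label Colitis, with those of Control mice.

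Plasminogen is a circulating proenzyme that tissue-type and urokinase-type plasminogen activators convert to plasmin, the protease that dissolves fibrin. The urokinase receptor holds urokinase on the cell surface, and serpins block the activators. Clotting is started by tissue factor, which is inhibited by tissue factor pathway inhibitor, and is restrained on endothelium by thrombomodulin and the endothelial protein C receptor, which together promote activation of protein C.

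The promoters of 3 genes are shown because each holds a match to the AP-1 motif TGACTCA, searched on both strands (reverse complement TGAGTCA), and belong to Plaur and F3, whose values passed the test, and to Procr. The motif and the promoters were chosen after the values were seen. Sequences are from RefSeq on GRCm38.p6, plus strand, each 300 bases long from 250 bases before the annotated start, with the motif in capitals. Promoter entries were found for 5 of the 9 genes; Plat, Plau, Thbd and Serping1 are named only.
Plaur, chr7:24462233-24462532: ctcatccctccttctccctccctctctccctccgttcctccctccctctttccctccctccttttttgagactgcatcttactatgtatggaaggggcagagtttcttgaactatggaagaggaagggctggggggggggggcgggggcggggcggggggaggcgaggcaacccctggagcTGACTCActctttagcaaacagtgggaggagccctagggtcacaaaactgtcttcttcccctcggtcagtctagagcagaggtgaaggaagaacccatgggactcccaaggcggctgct
F3, chr3:121723287-121723586: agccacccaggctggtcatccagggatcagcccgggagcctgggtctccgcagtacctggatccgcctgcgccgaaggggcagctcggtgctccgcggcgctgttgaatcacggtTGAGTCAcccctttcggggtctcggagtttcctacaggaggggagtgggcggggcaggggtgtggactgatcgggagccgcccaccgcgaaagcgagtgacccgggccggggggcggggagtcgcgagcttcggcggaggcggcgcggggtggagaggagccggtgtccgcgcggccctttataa
Procr, chr2:155750967-155751266: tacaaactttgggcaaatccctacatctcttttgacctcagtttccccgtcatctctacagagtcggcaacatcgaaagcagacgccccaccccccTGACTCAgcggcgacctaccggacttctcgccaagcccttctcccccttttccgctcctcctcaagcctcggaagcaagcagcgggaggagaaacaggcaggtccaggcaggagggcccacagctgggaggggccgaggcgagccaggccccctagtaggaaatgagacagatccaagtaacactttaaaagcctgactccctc
The first base of the match lay at -69 in Plaur, -135 in F3 and -154 in Procr, counted from the start site. Of all 32851 promoter windows of this length, 5.2% hold the motif. The Serpine2 window and both Tfpi windows hold no match. Of the other pathway genes that passed the test, F2r, which was lower in DSS mice, holds 1 match at -204, and the F10 and Serpind1 windows hold none. A match describes these letters and not a bound site.

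The libraries held 9312788 to 41869997 counts. Ribosomal symbols took 61.3% of the counts of Control 2, 1.13% to 10.5% of those of the other Control mice, and 1.27% to 4.66% of those of the DSS mice. The source label names colon, whereas titles and the extraction protocol name meninges. Col1a1, a fibroblast collagen gene, lay at 4280 to 9121 CPM in DSS mice and 4164 to 7044 CPM in Control mice, against a sum over 6 colon-epithelium markers of 1.12 to 8.62 CPM in DSS mice and 1.84 to 5.23 CPM in Control mice. Of these markers Cdx2 had 0 counts in all 12 libraries, and the other 5 had reads in every library, up to 137 for Muc2 in DSS 4. CPM is each gene's share of a library's counts on the usual per-library scale, with library sizes adjusted by TMM factors so that a few very abundant genes do not set the scale. In 18593 tested genes, 919 (4.94%) passed an adjusted p under 0.05 (edgeR quasi-likelihood test, Benjamini-Hochberg over all genes), 684 higher (3.68%) and 235 lower (1.26%) in DSS mice. Skeletal-muscle markers summed to 179 CPM in DSS 2, against 3.43 to 7.39 CPM in the other DSS mice and 6.41 to 14.3 CPM in Control mice. In these bulk samples, fewer cells of a type and less RNA per cell cannot be told apart.

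Of the 9 genes, 3 passed the test: Plaur rose, and Plat and F3 fell, in DSS mice. Over all genes 4.94% did so, and the genes were picked with this contrast known, so nothing is read from the count. The other 6, Plau, Serpine2, Thbd, Procr, Tfpi and Serping1, did not pass. The plots of the 9 genes by mouse and of their fold changes with intervals show the same values.

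**Figure D1:**
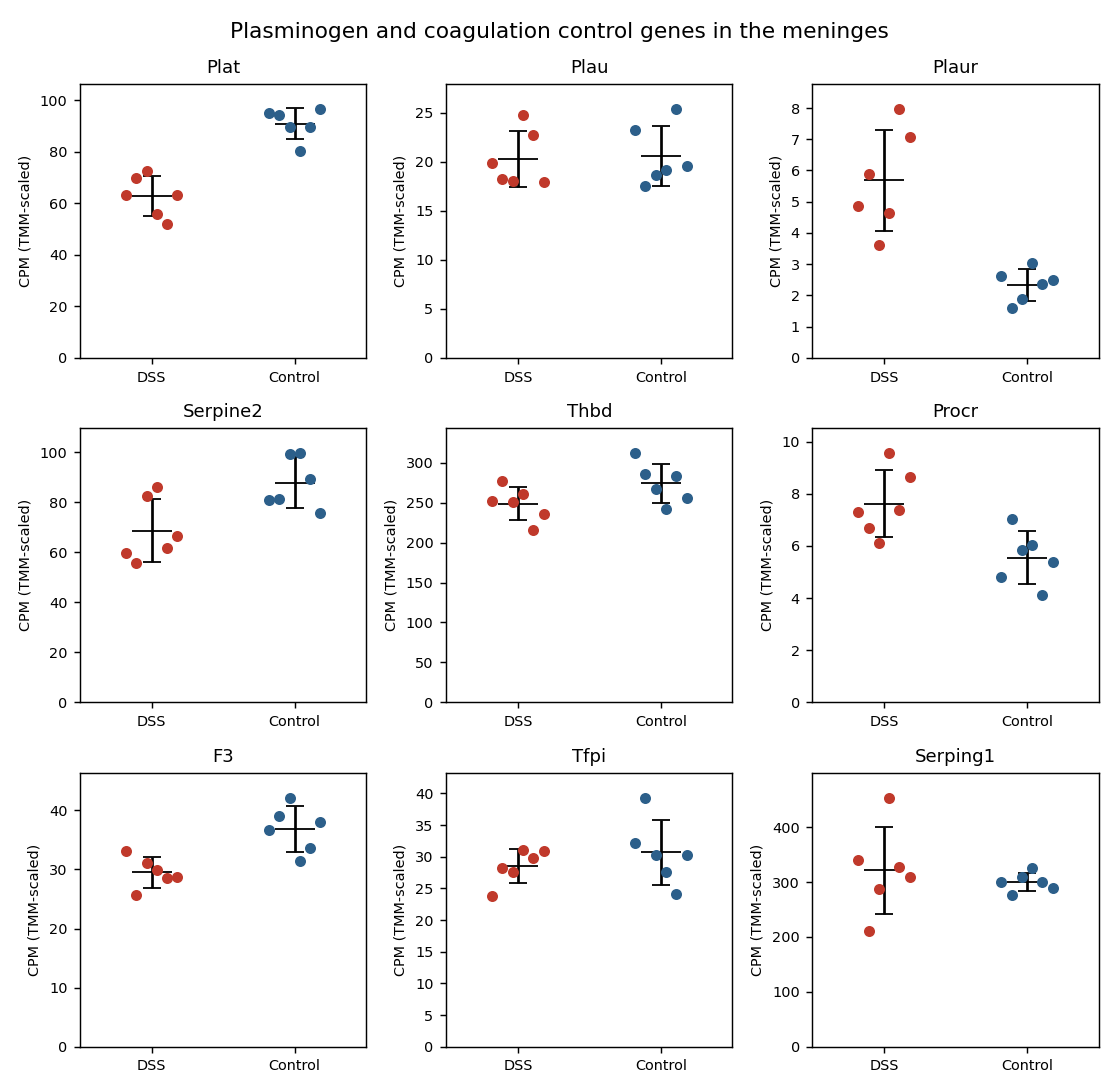
CPM of the 9 genes in each mouse, DSS left of Control; the long line is the mean and the bar the SD over 6 mice. Plaur lay between 3.63 and 7.98 CPM in DSS mice, above all Control mice, and Plat between 52.0 and 72.7 CPM, below all Control mice.

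**Figure D2:**
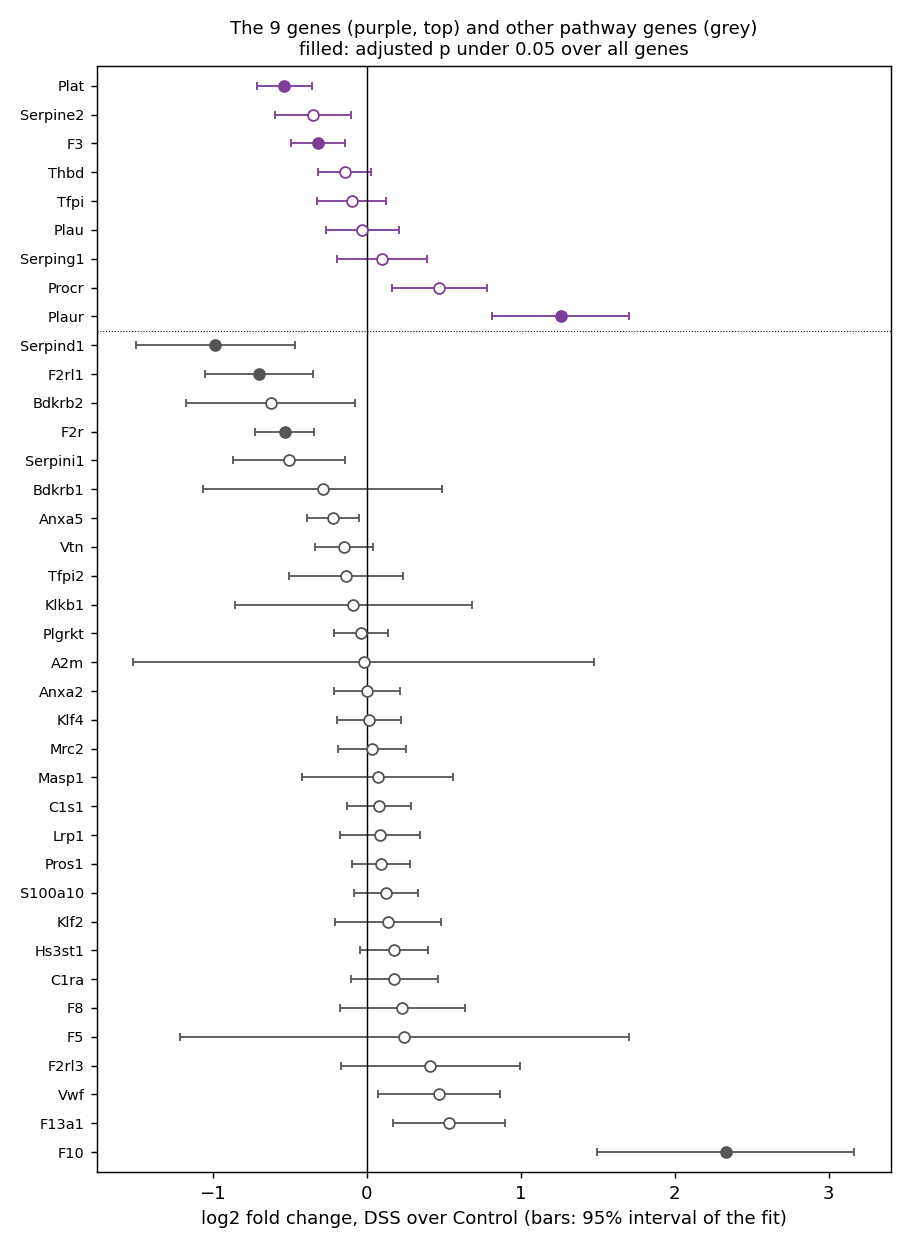
Log2 fold change, DSS over Control, of the 9 genes (purple, top) and the other tested pathway genes reported here (grey), with 95% intervals of the fit; filled points passed the test. Plaur and F10 lie to the right, Plat, F3, F2r, F2rl1 and Serpind1 to the left.

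Plat encodes tissue-type plasminogen activator and lies on chromosome 8 (GRCm38, 22757727 to 22782844, plus strand). Its level was 52.0, 63.4 and 72.7 CPM (lowest, median and highest) in DSS mice, against 80.5, 92.0 and 96.8 CPM in Control mice. Every DSS mouse lay below every Control mouse; such a separation, lower in DSS, was seen in 0.823% of all tested genes. The means were 62.9 ± 7.93 CPM in DSS mice and 91.0 ± 5.93 CPM in Control mice (SD, n = 6 each). The log2 fold change was -0.53 (SE 0.08, edgeR adjusted p = 0.00227), a level 30.9% lower. Without Control 2 and DSS 2, the libraries with most ribosomal and most muscle counts, it was -0.54 (edgeR adjusted p = 0.00462). With total counts in place of TMM factors Plat was no longer past the threshold, at -0.36 (edgeR adjusted p = 0.947). That setting leaves the ribosomal counts of Control 2, 61.3% of its total, in its library size. The TMM factor of Control 2 was 0.426, against 0.914 to 1.20 in the other libraries. Its part in the lost call was not tested. Of 7 bone markers 4 were lower in DSS mice, with summed levels of 393 to 1113 CPM in DSS mice and 764 to 1484 CPM in Control mice, and none was at 0 in all libraries. The 4 were Mmp9, Ctsk, Ibsp and Acp5. The bone marker Bglap, at 167 to 808 CPM in DSS mice and 301 to 847.5 CPM in Control mice, did not pass (log2 fold change -0.18). Of 6 neuron markers none passed, all 6 had negative log2 fold changes (median -0.54), and their sums were 66.4 to 102 CPM in DSS mice and 82.0 to 144 CPM in Control mice, where Control 1 was the lowest and the only one within the DSS range. None of 8 fibroblast markers and none of 8 mural (vessel-wall) markers passed, with median log2 fold changes of -0.08 and -0.06. The part of these cell types in the lower levels of Plat and F3 was not tested.

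Plau encodes urokinase-type plasminogen activator and lies on chromosome 14 (20836660 to 20843385, plus strand). Its level was 17.97, 19.1 and 24.8 CPM (lowest, median and highest) in DSS mice and 17.5, 19.4 and 25.4 CPM in Control mice. The groups overlapped almost fully, and the fold change on the log2 scale was -0.03, with a 95% interval of -0.26 to 0.21 (edgeR adjusted p = 0.935).

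Plaur encodes the urokinase receptor and lies on chromosome 7 (24462484 to 24475968, plus strand). It had 80 to 228 reads in DSS mice and 19 to 122 in Control mice, among the lowest of the 9. Its level was 3.63, 5.38 and 7.98 CPM (lowest, median and highest) in DSS mice, against 1.59, 2.43 and 3.05 CPM in Control mice. All 6 DSS mice lay above all Control mice, as 2.23% of tested genes did. DSS over Control, the log2 fold change was 1.26 (SE 0.21, edgeR adjusted p = 0.00297), a 2.39-fold higher level, and 1.18 without Control 2 and DSS 2. All 10 neutrophil markers were higher in DSS mice, with summed levels of 234 to 1241 CPM in DSS mice and 60.1 to 183 CPM in Control mice, and none of them was at 0 in all libraries. Monocyte markers, 5 of 6 higher, summed to 122 to 247 CPM in DSS mice and 83.9 to 94.7 CPM in Control mice. DSS 3 had the lowest Plaur level and the lowest neutrophil and monocyte sums of the DSS mice. The order of the other DSS mice differed. DSS 5 had the highest Plaur level, with sums of 966 CPM (neutrophil) and 193 CPM (monocyte). DSS 4 had a Plaur level of 4.64 CPM, with sums of 946 CPM and 219 CPM. The part of these cells in the Plaur difference was not tested.

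Serpine2, on chromosome 1 (79794197 to 79861180, minus strand), encodes protease nexin 1, a serpin that blocks thrombin and the plasminogen activators. Its level was 55.7, 64.1 and 86.1 CPM (lowest, median and highest) in DSS mice and 75.6, 85.3 and 99.7 CPM in Control mice. In 4 DSS mice it lay below all Control mice, and DSS 3 and DSS 4 lay among them. The log2 fold change was -0.35 (SE 0.11, 95% interval -0.60 to -0.10) and missed the threshold (edgeR adjusted p = 0.0983). It passed under limma-voom with quality weights (adjusted p = 0.0371).

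Ratios of reads within a library do not depend on library scaling. The ratio of Plaur reads to Plat reads was 0.0499 to 0.153 in DSS mice (median 0.0835) and 0.0169 to 0.0379 in Control mice (median 0.0261). The groups did not overlap. This had to be so, because every DSS mouse lay above all Control mice in Plaur and below them in Plat. It is no separate result. Plaur over Plau was 0.187 to 0.394 in DSS mice and 0.0909 to 0.159 in Control mice, without overlap. Plaur alone already separated the groups and Plau hardly differed, so this ratio is no separate result either. Plat over Plau was 2.26 to 4.04 in DSS mice and 3.53 to 5.38 in Control mice, and overlapped.

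**Figure D3:**
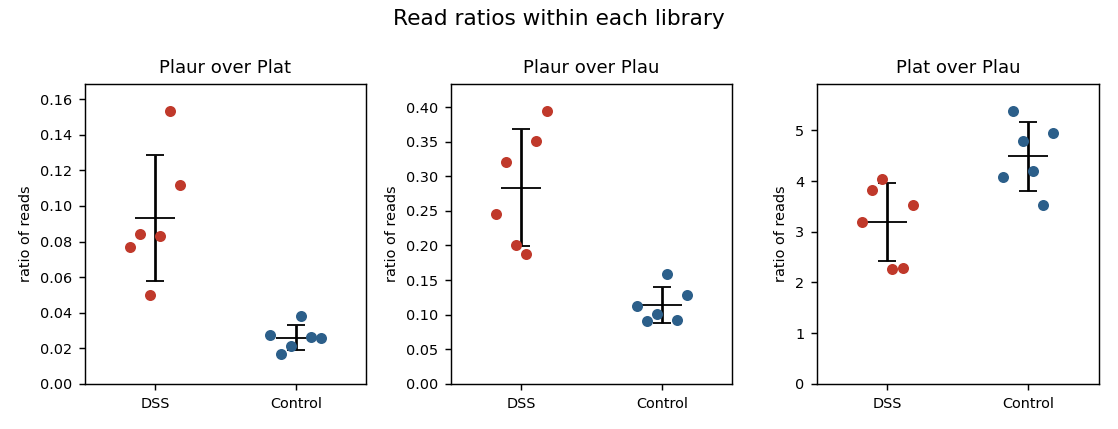
Ratio of reads of 2 genes within each library (no unit), DSS left of Control, with mean and SD over 6 mice. Plaur over Plat lay at 0.0499 to 0.153 in DSS mice and at 0.0169 to 0.0379 in Control mice.

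Thbd encodes thrombomodulin in 1 exon on chromosome 2 (148404466 to 148408188, minus strand). Its level was 216, 251 and 277 CPM (lowest, median and highest) in DSS mice and 243, 275 and 312 CPM in Control mice. The groups overlapped, with 2 DSS mice below all Control mice. On the log2 scale the difference was -0.14 (95% interval -0.32 to 0.03, edgeR adjusted p = 0.373).

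Procr encodes the endothelial protein C receptor (chromosome 2, 155751117 to 155755471, plus strand). Its level was 6.10, 7.35 and 9.56 CPM (lowest, median and highest) in DSS mice and 4.12, 5.62 and 7.04 CPM in Control mice. In 4 DSS mice it lay above all Control mice. The log2 fold change was 0.47 (SE 0.14, edgeR adjusted p = 0.0776) and missed the threshold. It passed without Control 2, at 0.57 (edgeR adjusted p = 0.0411), and under the DESeq2 Wald test (adjusted p = 0.0239). The 10 endothelial markers, none of which passed, summed to 793 to 1131 CPM in DSS mice and 769 to 999 CPM in Control mice. Their log2 fold changes ran from -0.02 to 0.26, with a median of 0.14. The part of endothelial cells in the Procr level was not tested.

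F3 encodes tissue factor (chromosome 3, 121723537 to 121735048, plus strand). Its level was 25.6, 29.3 and 33.1 CPM (lowest, median and highest) in DSS mice and 31.5, 37.4 and 42.2 CPM in Control mice. In 5 DSS mice F3 lay below all Control mice, and DSS 1 lay among them. The log2 fold change was -0.32 (SE 0.08, edgeR adjusted p = 0.0379), a level 19.7% lower. This call was lost when any of 8 mice was left out (Control 1, 2, 3 or 6, DSS 2, 4, 5 or 6), with edgeR adjusted p-values of 0.0549 to 0.102, and without Control 2 and DSS 2 together it was -0.25 (edgeR adjusted p = 0.104).

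Tfpi encodes tissue factor pathway inhibitor (chromosome 2, 84432855 to 84476775, minus strand). Its level was 23.9, 29.0 and 31.1 CPM (lowest, median and highest) in DSS mice and 24.2, 30.3 and 39.3 CPM in Control mice. The groups overlapped, and the log2 fold change was -0.10 (95% interval -0.32 to 0.13, edgeR adjusted p = 0.692). Reads of F3 over reads of Tfpi lay at 0.907 to 1.39 in DSS mice and 0.992 to 1.39 in Control mice.

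Serping1 encodes C1 inhibitor, which blocks C1r, C1s and plasma kallikrein (chromosome 2, 84765387 to 84775444, minus strand). Its level was 210, 318 and 454 CPM (lowest, median and highest) in DSS mice and 276, 300.1 and 326 CPM in Control mice. The groups overlapped, and 3 DSS mice lay above and DSS 2 below all Control mice. The coefficient of variation was 24.7% in DSS mice and 5.66% in Control mice. Between the groups the log2 fold change was 0.10 (95% interval -0.20 to 0.39, edgeR adjusted p = 0.773).

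Per kilobase of exon, Serping1 was the most abundant of the 9, at 138 ± 34.2 CPM per kb in DSS mice and 129 ± 7.29 in Control mice. Thbd followed with 66.8 ± 5.63 CPM per kb in DSS mice and 73.7 ± 6.59 in Control mice, and its mice did not overlap those of Serping1. F3 (11.7 ± 1.01 in DSS mice, 14.6 ± 1.52 in Control mice) and Plat (10.1 ± 1.27 in DSS mice, 14.6 ± 0.951 in Control mice) overlapped each other. Plaur was lowest, at 2.17 ± 0.622 CPM per kb in DSS mice and 0.893 ± 0.2 in Control mice; in DSS mice its range touched that of Procr.

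Of 53 other genes of the pathway, 30 were tested and 4 passed (13.3%, against 4.94% of all genes). F10, coagulation factor X, rose, and the thrombin receptor gene F2r, the protease-activated receptor gene F2rl1 and the thrombin inhibitor gene Serpind1 (heparin cofactor II) fell. The median log2 fold change was -0.10 for the 9 genes, 0.03 for the 30 pathway genes and -0.02 for all tested genes. The lists were chosen with earlier results known. Of the 23 untested genes, Serpina5, Cpb2, Fga and Fgg had 0 counts in every library, and Plg, which encodes plasminogen, had at most 4.

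F10 had 12 to 81 reads in DSS mice and 4 to 21 in Control mice. Its level was 0.479, 2.01 and 2.70 CPM (lowest, median and highest) in DSS mice and 0.194, 0.356 and 0.539 CPM in Control mice. Only DSS 3 lay within the Control range. Its log2 fold change was 2.33 (SE 0.39, edgeR adjusted p = 0.00345). F10 is also 1 of the 6 monocyte markers, of which 5, F10 itself included, were higher in DSS mice. Their sums are given for Plaur, and the part of these cells in the F10 difference was not tested.

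F2r had 30.1, 33.0 and 38.5 CPM (lowest, median and highest) in DSS mice and 40.1, 49.7 and 56.4 CPM in Control mice. The groups did not overlap, and the log2 fold change was -0.53 (SE 0.09, edgeR adjusted p = 0.00342). F2rl1 had 17.8, 27.0 and 38.1 CPM in DSS mice and 35.1, 42.0 and 57.2 CPM in Control mice, with a log2 fold change of -0.70 (edgeR adjusted p = 0.0247). DSS 1 lay within the Control range. Serpind1 had 1.64, 2.28 and 3.52 CPM in DSS mice and 3.15, 5.18 and 6.04 CPM in Control mice, with a log2 fold change of -0.98 (edgeR adjusted p = 0.0305). Of the DSS mice, 2 lay within the Control range of Serpind1. Without Control 2 and DSS 2, F2rl1 (edgeR adjusted p = 0.054) and Serpind1 (edgeR adjusted p = 0.0594) did not pass. F2rl1 also missed the threshold when Control 3, 5 or 6 or DSS 6 was left out (edgeR adjusted p = 0.0532 to 0.0633), and Serpind1 when Control 2, 3 or 4 or DSS 3, 4 or 6 was left out (edgeR adjusted p = 0.0556 to 0.0766). The levels of bone and neuron markers are given beside Plat, and their part in these differences was not tested.

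**Figure D4:**
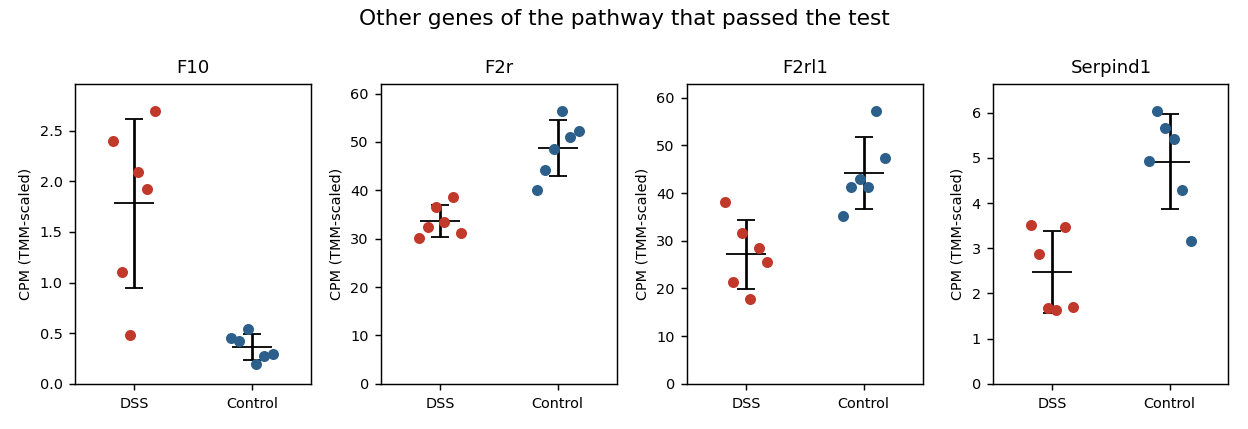
CPM of the 4 pathway genes outside the 9 that passed the test, DSS left of Control, with mean and SD over 6 mice. F10 averaged 1.78 ± 0.836 CPM in DSS mice and 0.363 ± 0.129 CPM in Control mice.

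Among the other pathway genes that did not pass, those with the smallest p in each list were as follows. Of the protease inhibitors in the plasminogen list, Serpini1 (neuroserpin) had a log2 fold change of -0.50 (edgeR adjusted p = 0.109) and A2m (alpha-2-macroglobulin) of -0.02 (edgeR adjusted p = 0.994). None of the 6 plasminogen receptor and clearance genes passed: Vtn, which encodes vitronectin, stood at -0.15 (edgeR adjusted p = 0.395), S100a10, a subunit of the annexin A2 complex, at 0.12 (edgeR adjusted p = 0.553) and Lrp1, a clearance receptor, at 0.09 (edgeR adjusted p = 0.776). Besides F10, the clotting factor list held F13a1, a subunit of the fibrin-crosslinking factor XIII, at 0.53 (edgeR adjusted p = 0.0893), Vwf (von Willebrand factor) at 0.47 (edgeR adjusted p = 0.174) and F8 (factor VIII) at 0.23 (edgeR adjusted p = 0.568). F13a1 passed under the DESeq2 Wald test and limma-voom with quality weights. It also passed without DSS 2, and without Control 2 and DSS 2 together.

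Besides Serpind1, the anticoagulant list held Anxa5 (annexin A5) at a log2 fold change of -0.22 (edgeR adjusted p = 0.138), Hs3st1, a heparan sulfate sulfotransferase, at 0.18 (edgeR adjusted p = 0.383) and Pros1 (protein S) at 0.09 (edgeR adjusted p = 0.647). F2rl3, a further thrombin receptor, stood at 0.41 (edgeR adjusted p = 0.457). In the contact and kinin list, the bradykinin receptor genes Bdkrb2 and Bdkrb1 stood at -0.62 (edgeR adjusted p = 0.193) and -0.28 (edgeR adjusted p = 0.751), and Klkb1 (plasma kallikrein) at -0.09 (edgeR adjusted p = 0.942). C1ra (0.18), C1s1 (0.08) and Masp1 (0.07), whose products are proteases of the complement system, and Klf2 (0.14) and Klf4 (0.02), known inducers of Thbd, did not pass. Without DSS 2, C1ra passed.

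The genes whose pattern over the 12 libraries was closest, by root mean square difference of centred log2 CPM among 12932 genes, were Eya1 (0.127), Nrep (0.129) and Id2 (0.134) for Plat, Igsf6 (0.271), Rab44 (0.298) and Lilra6 (0.311) for Plaur, and Zrsr1 (0.0848), Mtmr7 (0.0922) and Coq3 (0.0982) for F3. Centring used the mean of all 12 libraries, so the difference between DSS and Control mice stays in this measure. A close gene may share only that difference, and the list is no separate result. Symbols of Gm-number, Rik or accession style were left out. Eya1, Zrsr1, Mtmr7 and Coq3 did not themselves pass the test (edgeR adjusted p = 0.0525 to 0.12).

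Covariation was examined within groups, a measure that the choice of genes did not use. After subtraction of group means, 17 of 36 pairs had a positive Pearson r, and none passed adjustment over the 36 pairs by Pearson or Spearman permutation tests (unadjusted p under 0.05 in 2 pairs by Pearson and 4 by Spearman). Tfpi and Procr gave r = 0.66 (permutation p = 0.0291, adjusted 0.535) and rho = 0.67 (permutation p = 0.0276, adjusted 0.332). Without Control 2 and Control 5, the libraries farthest from the median of Tfpi, r for this pair was 0.27. Within the DSS mice alone it was 0.545, and within the Control mice 0.743. Plaur and F3 gave r = -0.62 (permutation p = 0.0388, adjusted 0.535) and rho = -0.70 (permutation p = 0.0188, adjusted 0.332), and r = -0.61 without the 2 libraries farthest from the median of Plaur. Plat and Serping1 gave rho = -0.87 (permutation p = 0.00173, adjusted 0.0623) and r = -0.66 (permutation p = 0.0744, adjusted 0.535), with r = -0.82 without the 2 libraries farthest from the median of Plat. Plau and Serping1 gave rho = 0.61 (permutation p = 0.0475, adjusted 0.428) and r = 0.54 (permutation p = 0.0556, adjusted 0.535), with r = 0.35 without the 2 libraries farthest from the median of Plau.

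**Figure D5:**
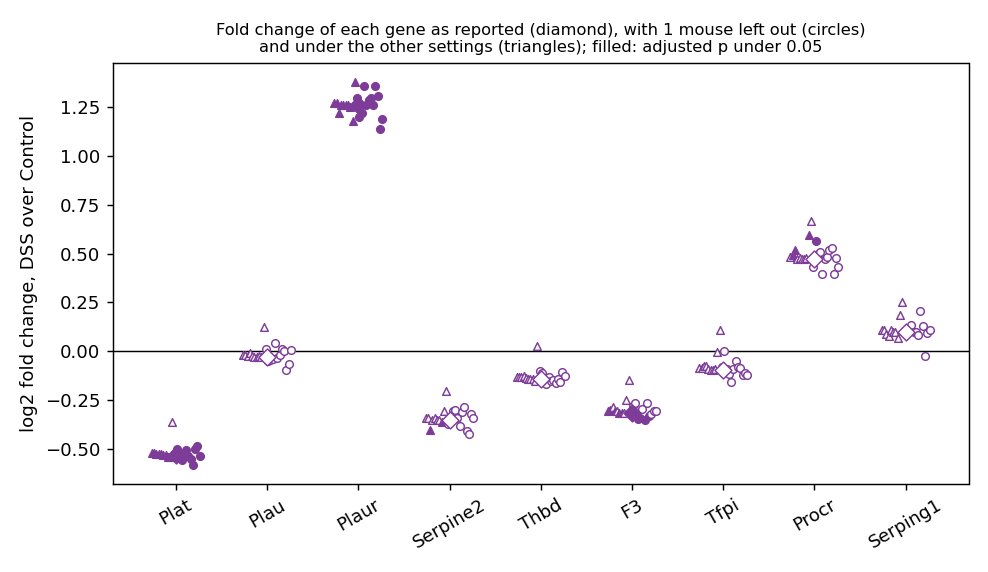
Log2 fold change, DSS over Control, of each gene as reported (diamond), with 1 mouse left out (circles) and under the other settings (triangles); filled points passed an adjusted p under 0.05. Plaur stayed at 1.14 to 1.38 and passed in all 22 alternatives, Plat passed in 21 and F3 in 9.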

How the data were processed

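Per the labels' protocols, RNA was extracted from meninges and sequenced from stranded total RNA libraries. The submitters' processing notes list the mm10 build and the programs featureCounts, HISAT2, Trim Galore, FastQC and CASAVA. Their versions, the annotation, the strand setting and the handling of multi-mapping reads are not given in the sources. The deposited count table holds the authors' whole-number counts per symbol. The deposited normalized signal equals those counts divided by 1 median-of-ratios factor per library, tested on the values, and served in 1 alternative. Columns were matched to mice by description; 0 columns had no sample.

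Counts were tested with edgeR 4.0.16 in R 4.3.3 (filterByExpr minimum count 10 and total 15, TMM, quasi-likelihood F-test, treatment as the only term, two-sided, Benjamini-Hochberg over 18593 genes, threshold 0.05). The SE of a fold change was its log2 size divided by the root of F. Covariation used log2 CPM with a prior count of 2 and 100000 permutations within groups. Steps were tested on simulated data. Of 47747 symbols, 45251 (94.8%) were found in GENCODE release M21 (GRCm38), which gave coordinates and exon lengths; none of the 9 genes overlaps another annotated gene. The study counts 12 separate mice, so the edgeR p-values set the group difference against the variation between mice. That variation includes the counting error, which depends on depth.

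The 9 genes, the pathway lists and the marker lists were chosen with earlier results of these data known. Named are all 9 genes, pathway genes that passed, up to 3 others per list with the smallest p, and the 3 genes most alike in pattern (mean log2 CPM of at least 1) to each of the 9 that passed. A pathway gene that the counts include is not reported here. Alternatives were limma 3.58.1 voom with quality weights, the DESeq2 1.42.0 Wald test, DESeq2 size factors, limma-trend on the log2 normalized values (pseudocount 1), no filter, CPM of at least 1 in 6 libraries, robust dispersion, a replicate block, total counts as library size, removal of Control 2 and DSS 2, and removal of each mouse.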

Additional observations from a re-analysis of the deposited data

Results flagged for a closer look

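In the 9 genes and the 30 other tested pathway genes, the lowest and the highest mouse of each group were compared with the others; 3 of 78 groups had a mouse far from its group, where chance gives about 3.9 (1 in 20). No group of the 9 genes had one. Serpini1 (neuroserpin) was at 6.96 CPM in Control 2, against 4.00 to 4.96 CPM in the other Control mice. F2rl3 was at 0.287 CPM in DSS 4, against 0.732 to 0.9804 CPM in the other DSS mice. Klf4 was at 26.8 CPM in DSS 6, against 20.04 to 22.1 CPM in the other DSS mice.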

How the results depend on the processing

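Of 22 alternatives, Plaur passed in all, Plat in 21 and F3 in 9; Serpine2 passed in 2 and Procr in 4. The DESeq2 Wald test called 1551 genes and total counts as library size 414, against 919 with TMM; with total counts, 363 were higher and 51 lower in DSS mice, against 684 and 235, and the median of all genes shifted by 0.164. With total counts 1 of the 9 genes and 1 pathway gene passed. The TMM factor of Control 2, which this setting leaves out, is given beside Plat. Leaving out 1 mouse gave 538 (without DSS 6) to 1379 (without DSS 2) called genes (559 without DSS 4, 608 without Control 5), 2 to 3 of the 9, and 2 (without Control 3 or DSS 6) to 6 (without DSS 2) pathway genes. F2rl1 passed in 16 alternatives and Serpind1 in 14; F2r was lost with total counts (-0.38) and F10 was never lost where tested.

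Genes that did not pass changed sign in 10 cases, with log2 fold changes near 0: Plau was 0.124 with total counts, and 0.009 without Control 1, 0.040 without Control 5, 0.010 without DSS 2, 0.003 without DSS 3 and 0.005 without DSS 6 (-0.094 to 0.040 with 1 mouse left out). Thbd was 0.026 and Tfpi 0.107 with total counts, Tfpi 0.003 without Control 2 (-0.159 to 0.003 with 1 mouse left out), and Serping1 -0.024 without DSS 4 (-0.024 to 0.207). The cause was not tested.

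The labels do not say whether mice with the same replicate number were paired. Correlations of same-numbered mice were -0.189 to 0.154 (1 of 6 over 0.1), which does not settle the question. With a replicate block 708 genes passed, among them 3 of the 9 (Plat, Plaur and Serpine2, the last with adjusted p = 0.0284) and 4 pathway genes; F3 did not (adjusted p = 0.0767). Depth limits Plaur and F10, with as few as 19 and 4 reads in a library.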

Other observations

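F5, which encodes coagulation factor V, and A2m, a broad protease inhibitor, varied more between mice of 1 group than the 9 genes did. F5 was at 6.54 CPM in DSS 3 and 6.61 CPM in DSS 4, against 22.4 to 61.5 CPM in the other DSS mice, and at 3.10 CPM in Control 2 and 2.16 CPM in Control 5, against 23.7 to 51.6 CPM in the other Control mice. F5 was singled out after its values were seen. The summed choroid plexus markers were lowest in the same 4 libraries, at 700 CPM in DSS 3, 274 CPM in DSS 4, 222 CPM in Control 2 and 205 CPM in Control 5. A2m was at 3.71 CPM in DSS 3, 0.698 CPM in DSS 4, 2.77 CPM in Control 2 and 1.08 CPM in Control 5.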
